A study of Homo sapiens with 16 samples.

Results

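In the 4 deposited lists of γ-tubulin ChIP-seq peaks, 6 of 2962 peaks lay at the genes that encode γ-tubulin itself, *TUBG1* and *TUBG2*. These 6 are all the peaks of any list that touch a window of 70.0 kb on chromosome 17, which starts 6.36 kb before *TUBG1* and ends 6.0 kb after *TUBG2*. Positions are those of hg19, the human genome build of the files, counted from 1. The window was chosen by its listed peaks, which appeared in 1 list alone and with a high fold enrichment, so their number and height are given as a description and carry no test. *TUBG1* was taken to run from about 40761358 to 40767256 and *TUBG2* from about 40811300 to 40819000. In the RefSeq annotation of GRCh38.p14, used here for names and order only, both genes are on the plus strand, with *RETREG3* next to *TUBG1* and *PLEKHH3* next to *TUBG2*. The pseudogenes *ATP5MGP7* and *HMGB3P27* lie between them.

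γ-Tubulin is the member of the tubulin family that starts new microtubules. It does so in a ring-shaped complex with the γ-tubulin complex proteins, at the centrosome among other places, and the protein is also found in the cytosol and in the nucleus. *TUBG1* encodes the form that dividing cells depend on, and *TUBG2* encodes a closely similar form whose expression is known mostly from brain.

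The cells were MCF10A, an established line of human breast epithelial cells, and γTubulinsh-MCF10A, the same line stably transfected with γ-tubulin shRNA and kept under 100 µg/ml Zeocin. Both were held at the start of S-phase with a double thymidine block and harvested 1 h or 2 h after release. Each of the 4 conditions had 2 ChIP libraries, precipitated with rabbit antibodies to γ-tubulin, and 2 whole cell extract libraries as controls, 16 in all. The parental cells carried no shRNA and the labels name no control shRNA, so lower γ-tubulin, transfection and selection cannot be told apart in these groups. The labels do not say whether the transfected cells are 1 clone. The level of *TUBG1* or *TUBG2* RNA or protein is not measured in these files.

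Both ChIP libraries of a condition were pooled into 1 list by the authors. No value below therefore has an SD between replicates, and no difference between conditions was tested. At 1 h the lists held 1035 peaks for MCF10A and 296 for γTubulinsh-MCF10A, and at 2 h they held 1547 and 84. The mean number of ChIP reads over 10 kb of genome, recovered from the peak values, was 127, 121, 141 and 153 in the same order, if the same genome size was used for each list. The list of γTubulinsh-MCF10A cells at 2 h was thus the shortest, though it had the most ChIP reads by this measure. The measure holds only reads that the peak caller counted, so it is not the sequencing depth itself.

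All 6 peaks at *TUBG1* and *TUBG2* came from the 2 h list of γTubulinsh-MCF10A cells. The longest of them had 173 bp, so with a minimum peak length of 200 bp the number at the genes was 0 in this list too. Neither of the 1 h lists had a peak in the window, nor had the 2 h list of MCF10A cells, and each had 0 peaks as well when the window was widened by 100 kb on either side. At 1 h the nearest peak outside the window was 15.2 Mb away for MCF10A and 15.5 Mb away for γTubulinsh-MCF10A. At 2 h it was 2.13 Mb away for MCF10A. For γTubulinsh-MCF10A at 2 h it was 10.4 Mb away, and only 7 peaks of that list lay on chromosome 17 in total. These peaks were therefore not the edge of a longer run of peaks.

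The summits fell inside the spans of the genes and not between or beside them. *TUBG1* held 4 summits and *TUBG2* held 2. The stretch between the genes, 44.0 kb long, had 0 summits, and so had the flanks of the window on either side of the genes. The peaks covered 573 bp or 9.71% of the *TUBG1* span and 291 bp or 3.78% of the *TUBG2* span. Gene models of hg19 were not used here, so the summits were not placed in exons or introns.

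**Figure D1:**
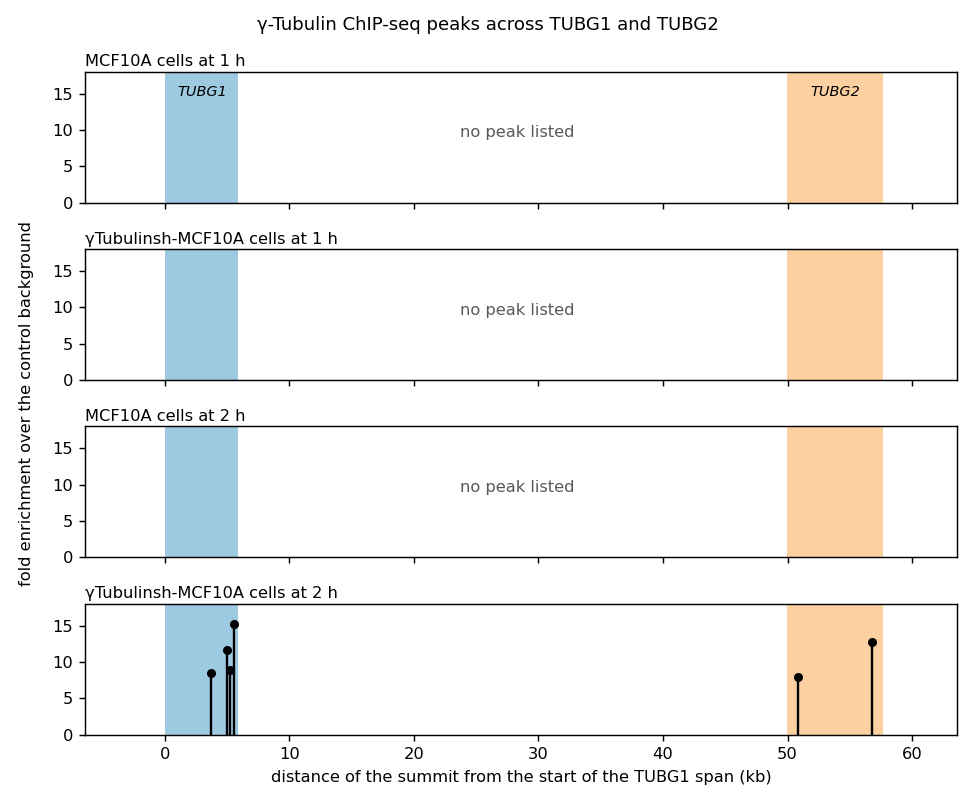
Fold enrichment over the control background (y axis) at each peak summit, plotted by distance in kb from the start of the TUBG1 span (x axis), 1 panel per list, with the approximate spans of TUBG1 (blue) and TUBG2 (orange) shaded. The 4 summits in TUBG1 and 2 in TUBG2 appear only in γTubulinsh-MCF10A cells at 2 h, and the 44.0 kb between the genes are empty in every list.

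Within *TUBG1* the peaks were gathered towards the 3′ end. The first ran from 40764958 to 40765089, with its summit 3683 bp into the span and 2215 bp before its end. The other three ran from 40766286 to 40766413, from 40766518 to 40766657 and from 40766864 to 40767036. Their summits were 911 bp, 662 bp and 319 bp before the end. No peak was listed in the first 3600 bp of the span, which hold the start of the gene. Reads that match several places were not kept, so reads shared by *TUBG1* and *TUBG2* could be missing from any stretch. Whether this shaped the places of the peaks was not tested.

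The highest fold enrichment of *TUBG1*, 15.2, belonged to the peak nearest the 3′ end, which also had the highest −log10 q-value of the locus, 35.3. The fold enrichment is the authors' ratio of ChIP reads at the summit, scaled by 0.943 in this list, plus 1, to the control background there, plus 1, and the q-value is that of the peak caller for the pooled libraries. The peak from 40766286 was enriched 11.7-fold, at a −log10 q-value of 22.2. The other pair was lower, with a fold enrichment of 8.89 at 40766518 and 8.43 at 40764958. Their −log10 q-values were 13.4 and 13.2.

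In *TUBG2* the peaks lay far apart. The first ran from 40812197 to 40812327 with its summit 935 bp into the span, and the second ran from 40818097 to 40818256 with its summit 836 bp before the span end. They were 5929 bp apart, whereas the neighbouring summits of the last 3 *TUBG1* peaks were 249 bp and 343 bp apart. The peak near the 3′ end was again the higher, with 12.8-fold enrichment at a −log10 q-value of 25.4. The one near the start had the lowest values of the 6, which were 7.88-fold and 10.4. In each of the genes the highest peak was thus the last along the gene, at 94.6% of the *TUBG1* span and 89.1% of the *TUBG2* span.

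The number of reads behind each peak was recovered from the deposited values, since the peak caller derives its Poisson p-value, like the fold enrichment, from the ChIP pileup (the reads that cover the summit) and the control background. In *TUBG1* the pileups were, from 5′ to 3′, 28 reads (exact Poisson 95% interval 18.6 to 40.5), 36 reads (25.2 to 49.8), 27 reads (17.8 to 39.3) and 46 reads (33.7 to 61.4). In *TUBG2* they were 24 reads (15.4 to 35.7) near the start and 38 reads (26.9 to 52.2) near the 3′ end. These intervals cover counting error only, and reads amplified by PCR are not independent molecules. Between the highest and the lowest of the 6 the pileup differed 1.92 times. Their separate intervals overlapped slightly, which is no test of the difference between them. Within each gene the interval of the last peak also overlapped those of the peaks before it. The order of heights along the genes was not tested. Neighbouring summits were at least 249 bp apart, more than the fragment length of 115 bp recovered for this list, so no read was counted at more than 1 summit. The 6 pileups, 199 reads in total, are thus separate reads.

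At the 6 summits the control background from the whole cell extract of the same cells was at most 1.36 times the genome background. This value is an upper bound for the extract at a summit, and for 5 of the peaks it is an average over 10 kb. The control background, the highest of several local estimates and the genome average of the extract, was 1.36, 1.20, 1.19 and 1.16 times the genome background along *TUBG1* and 1.21 and 1.14 times along *TUBG2*. The genome background is the lowest control value of the list, shared by 6 peaks. For 5 of the peaks the control background came out as a whole number of extract reads over 10 kb, namely 196, 173, 172 and 167 in *TUBG1* and 164 at the second *TUBG2* peak, beside a genome mean of 144. At the first *TUBG2* peak it equalled 2.00 reads over 115 bp. Since the peak caller takes the highest of its estimates, the extract held at most 2 reads over the 115 bp at any of these summits, while the ChIP held 24 to 46. Over the 1 kb around each summit it held at most 19. The peaks were called against this extract and chosen by their fold enrichment over it, so the contrast between ChIP and extract is a description of how they were chosen. Whether the ChIP reads came from the chromosome or from other copies of these sequences was not tested.

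Among the 79 nuclear peaks of this list, the 6 peaks at *TUBG1* and *TUBG2* held the 6 highest fold enrichments. The lowest of them, 7.88, was followed by 7.53 on chromosome 16 from 56643343 to 56643928. Next came 7.47 on chromosome 6 from 26158279 to 26158504 and on chromosome 1 from 149858271 to 149858460. The list ended its first 11 with 7.13 on chromosome 6 from 30710629 to 30711154 and 7.12 on chromosome 1 from 149813339 to 149813532. The gap between the lowest peak of the locus and the next peak was thus small, and the 4 highest peaks at the genes stood further apart. The median fold enrichment was 10.3 at the locus and 3.0 in the other 73 peaks. Most of those 73 had a raised control background, where a high fold enrichment needs far more reads. No pileup of this list, mtDNA included, was above 227 reads, which limits the fold enrichment such peaks can reach. Among the 19 of them with a control background under 1.5 times the genome background, the median was 6.31 and the highest 7.53.

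By pileup the same 6 peaks were in the lower part of the list, between ranks 46 and 57 of 79. Most nuclear peaks of these cells had many reads in the ChIP and in the extract alike, with a median control background of 10.8 times the genome background outside the locus, and up to 68.1 times. By score, 10 times the −log10 q-value, the peaks at the genes had ranks 2, 5, 13 and 14 (*TUBG1*) and 3 and 22 (*TUBG2*). The highest score, 510, belonged to a peak on chromosome 21 from 9825983 to 9826324, where the fold enrichment was 4.35 and the control background 25.3 times the genome background.

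**Figure D2:**
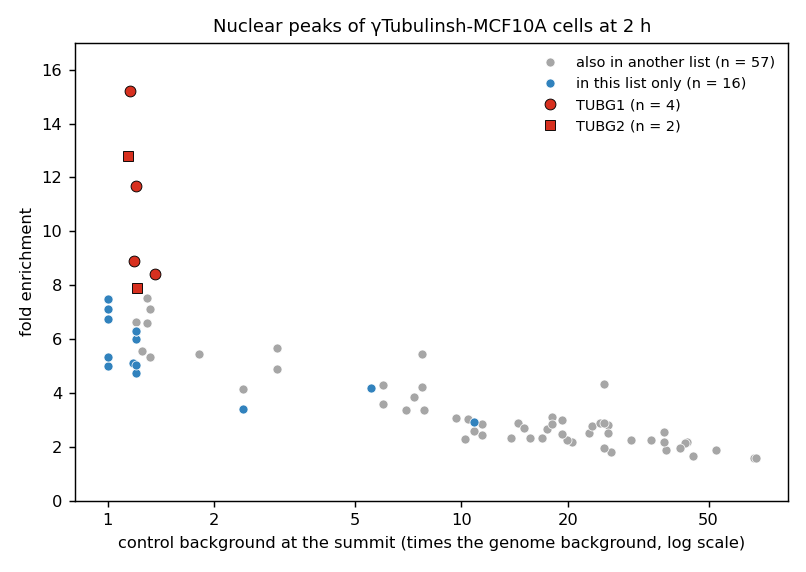
Fold enrichment (y axis) against the control background at the summit, in multiples of the genome background on a log scale (x axis), for the 79 nuclear peaks of γTubulinsh-MCF10A cells at 2 h. The 6 peaks of TUBG1 and TUBG2 (red) sit at the top left, with fold enrichments from 7.88 to 15.2 at 1.14 to 1.36 times the genome background, while the peaks shared with another list (grey) mostly lie at a raised control background.

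None of the 6 peaks overlapped a peak of another list, which is the property they were chosen for. Over the whole list 22 of 79 nuclear peaks, 27.8%, overlapped no peak of the other 3 lists. A control background under 1.5 times the genome background was found at 6 of 6 peaks of the locus and at 31.6% of the list. Both properties were found together at 24.1% of the list, 19 peaks, of which 13 lay outside the locus. These 13 were the peaks most like those of *TUBG1* and *TUBG2*.

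Of these 13 peaks, 7 lay on chromosome 6 between 26104638 and 26270658, 4 on chromosome 1 between 149813339 and 149859206, and 1 each on chromosomes 13 and 22. Their fold enrichment was between 4.74 and 7.47 and their pileup between 13 and 20 reads, below the lowest values at *TUBG1* and *TUBG2*. Like the peaks of the γ-tubulin genes, most of them were thus gathered at a few places. The peaks from 56643343 on chromosome 16 and from 30710629 on chromosome 6 were of another kind, since both overlapped peaks of other lists. At 1 h these had fold enrichments of 7.91 and 9.42 for γTubulinsh-MCF10A, and at 2 h they had 3.49 and 5.67 for MCF10A.

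Groups of peaks close to each other were found elsewhere in the list too. When nuclear peaks at most 10 kb from each other were joined, 4 groups had at least 4 peaks. The others were on chromosome 4 from 49141664 to 49153050 with 6 peaks, on chromosome 16 from 46413257 to 46421637 with 4 and on chromosome 1 from 566600 to 569452 with 4. Their median control backgrounds were 18.7, 45.2 and 35.9 times the genome background, compared with 1.20 times in *TUBG1*. Their highest fold enrichments were between 2.76 and 2.87, and each of their peaks overlapped a peak of another list. Gathering at a low control background was not particular to *TUBG1*, however. With groups of at least 3 peaks, a limit chosen after the values were seen, 4 groups had a median control background under 1.5 times the genome background. Beside *TUBG1* these were 3 peaks each on chromosome 6 from 26157369 to 26158504, on chromosome 1 from 149858271 to 149859206 and on chromosome 16 from 56643113 to 56644373. Their median control backgrounds were 1.0, 1.18 and 1.3 times the genome background, and their highest fold enrichments were 7.47, 7.47 and 7.53, below the lowest in *TUBG1*, 8.43.

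An equally high pileup at these genes in another condition would have been above the lowest level that was called there. Peaks with a control background under 1.5 times the genome background were listed at 1 h from a pileup of 10 reads for MCF10A and 11 for γTubulinsh-MCF10A, and at 2 h from 11 and 13 reads. In multiples of each list's genome background, after the same scaling, these lowest levels were 7.15 and 8.57 at 1 h and 6.49 and 7.39 at 2 h. The peaks of *TUBG1* stood at 15.9, 20.5, 15.4 and 26.2 times and those of *TUBG2* at 13.6 and 21.6 times the genome background. These heights belong to the values that chose the peaks, so their distance from the called levels is a description. At the first *TUBG2* peak the interval reached down to 8.74 times, close to the highest of the 4 called levels. The lists give no value where no peak was called, so lower binding at these genes in the other conditions was not measured, and the control background there is not known.

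**Figure D3:**
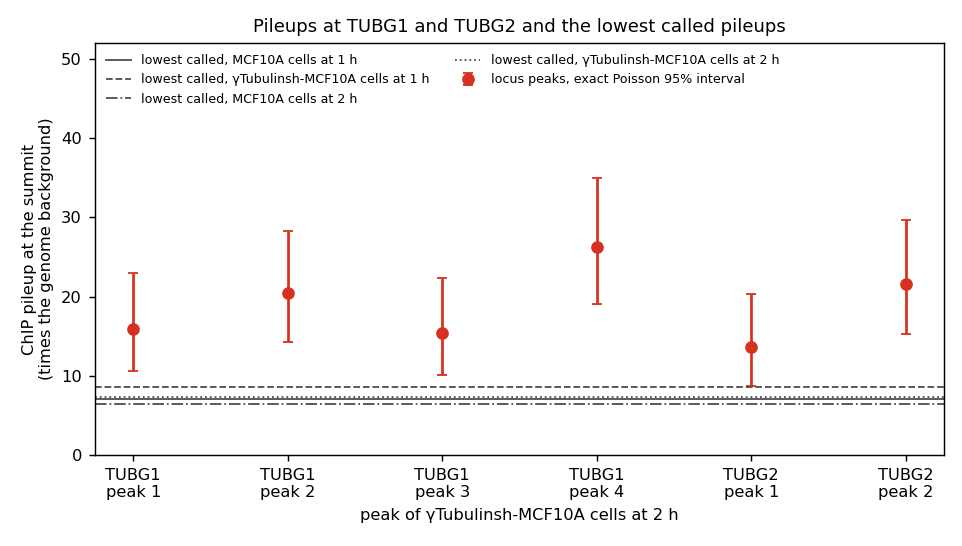
ChIP pileup at the 6 summits of γTubulinsh-MCF10A cells at 2 h, in multiples of the genome background (y axis), with exact Poisson 95% intervals that cover counting error only (bars). The lines give the lowest pileup called at a control background under 1.5 times the genome background in each of the 4 lists, from 6.49 to 8.57. The 6 pileups are 13.6 to 26.2 times the genome background, and because the peaks were chosen by their height the distance from the lines is no test.

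The peaks at the genes were short for their height in this list. Their lengths were 132, 128, 140 and 173 bp in *TUBG1* and 131 and 160 bp in *TUBG2*, beside 115 bp for the shortest peak of the list. The other 19 nuclear peaks with a control background under 1.5 times the genome background had 13 to 24 reads and lengths from 115 to 586 bp, with a median of 190 bp. Only 1 of them reached 13.6 times the genome background, the level of the weakest peak at the genes, and it was 586 bp long. In the other lists such narrow and high peaks did occur elsewhere. Of 31 MCF10A peaks that reached this level at a low control background at 1 h, 21 were no longer than 173 bp, as were 8 of 21 at 2 h. The 1 h list of γTubulinsh-MCF10A had 7 peaks of this level, 4 of them as short. Their shape alone therefore did not set the peaks of *TUBG1* and *TUBG2* apart from those of the other lists.

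**Figure D4:**
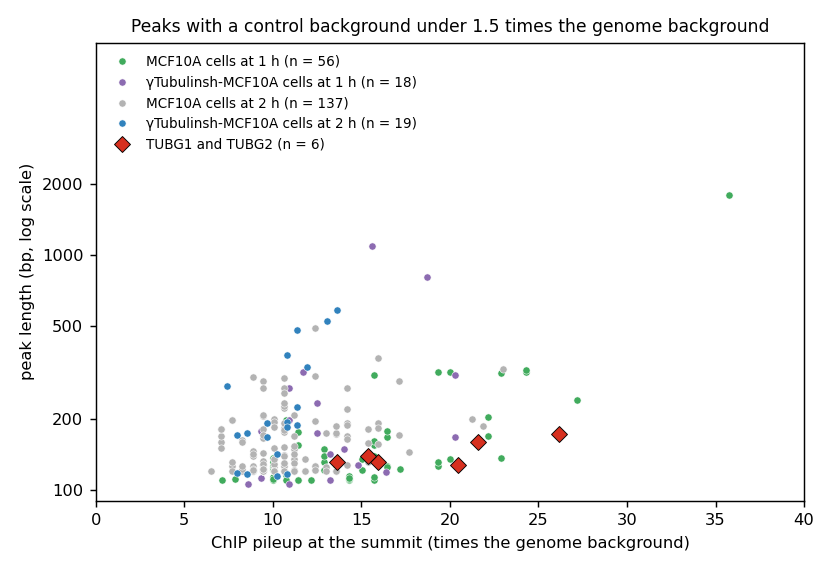
Peak length in bp on a log scale (y axis) against the ChIP pileup in multiples of the genome background (x axis) for nuclear peaks with a control background under 1.5 times the genome background, coloured by list. The 6 peaks of TUBG1 and TUBG2 (red) are 128 to 173 bp long at 13.6 to 26.2 times the genome background, and the other peaks of γTubulinsh-MCF10A cells at 2 h (blue) are lower or longer.

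The highest fold enrichment of the locus, 15.2, lay within the range of the top nuclear peaks of the other lists, which were at other places. At 1 h those were 17.8 on chromosome 5 from 10019 to 11819 for MCF10A and 10.2 on chromosome 1 from 249240112 to 249240420 for γTubulinsh-MCF10A. At 2 h it was 14.8 for MCF10A, on chromosome Y from 13813391 to 13813718. Whether the reads behind these top peaks belong to the places listed, chromosome Y among them, was not tested. What kind of peak they are was not tested either. The fold enrichments are given side by side only, since those of separate lists depend on the depth of each.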

How the data were processed

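The authors sequenced the libraries (Ion Proton), aligned the reads to hg19 with Bowtie 1.0.0, keeping unique positions, and called peaks with MACS2 2.1.1. Their own comparison of conditions set a minimum length of 200 bp for its differential regions. That limit was not one for the listed peaks, so it does not say whether these genes were left out of that comparison. Per the labels, bedtools 2.17.0 was used too, in a role not given in the sources used here. The deposited lists give a score (10 times the −log10 q-value), a fold enrichment (a ratio with 1 added to each side), and −log10 p- and q-values. Reads shared by the similar *TUBG1* and *TUBG2* sequences could be lost under unique mapping.

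Members, lists and settings were chosen with earlier results of these data known. Named were all locus peaks, both genes, their neighbours, and the next 5 peaks by fold enrichment. Pileup and control background were solved from fold enrichment and p-value under the formulas and default windows of MACS2. Pileups lay within 0.02 of a whole number in 100% of peaks of each list, at a ChIP scale of 0.943 in the γTubulinsh-MCF10A 2 h list. Where several solutions existed, the one nearest a whole number was kept. The scale of 0.943 was itself chosen to bring the pileups nearest to whole numbers, so the 100% in that list is no independent check. The procedure was tested on simulated peaks made with the same formulas, which does not test the formulas themselves. The fragment length was read from the shortest peak of a list. Overlap meant at least 1 bp. Scripts ran under Python 3.11.15 with scipy 1.17.1, numpy 2.4.6 and pandas 2.3.3, and plots were drawn with matplotlib 3.10.9.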

Additional observations from a re-analysis of the deposited data

How the results depend on the processing

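No paired analysis was possible because the deposited lists hold both libraries of a condition in 1, which also leaves no replicate to leave out. The number of peaks at *TUBG1* and *TUBG2* was 0 in the other 3 lists under all 5 alternatives. Only the region widened by 100 kb could have added a peak there. The other alternatives remove or join peaks, so with them a count of 0 was fixed in advance. In γTubulinsh-MCF10A cells at 2 h it was 6 when scores had to reach the pooled median or with a region widened by 100 kb, and 4 with the pooled 75th percentile or with peaks merged within 1000 bp. It was 0 with a minimum length of 200 bp, since the longest peak had 173 bp. With no pseudocount in the fold enrichment, 7.14% of pileups in that list were whole in place of 100% and none of those was at the locus, so the pileups and control backgrounds rest on a pseudocount of 1. The locus peaks kept the 6 highest fold enrichments among all 84 peaks and among the 25 nuclear peaks at a low control background. Neither could differ, since the added mtDNA peaks reached only 1.76-fold and the 25 are nuclear peaks that include all 6. The lowest called pileups were the same at a control limit of 1.2. Under 3 other definitions of overlap the share of nuclear peaks in 1 list was 25.3%, 22.8% and 27.8%, beside 27.8%. For the locus peaks it was 100% throughout. Placing in exons and introns and the genes of the γ-tubulin complex were not run. Counting peak groups of at least 3 in place of 4, an alternative chosen after seeing the data, gave 4 groups at a low control background in place of 1. The lowest called levels, 6.49 to 8.57 times the genome background, limit what a missing peak can say. They did not follow the order of the mean number of ChIP reads over 10 kb.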
